A study of Homo sapiens with 12 samples.

Results

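UAP1L1 and RENBP were measured here together with 8 further genes that make, salvage or break down amino sugars, in HK-2 cells, which are an established human line from the proximal tubule of the kidney. The 10 genes are UAP1L1, RENBP, UAP1, GFPT1, GFPT2, GNPNAT1, PGM3, NAGK, GNE and AMDHD2, out of 26334 gene symbols in the table. UAP1L1 and RENBP were chosen by their higher level after doxycycline (Dox) in these same libraries, so for them the change from vehicle to Dox, and anything computed from it, is a description with no test. Of the 10 genes, 9 reached the level needed for a test, an FPKM of at least 1 in at least 3 of the 12 libraries, and GFPT2 did not. FPKM is a number of sequenced fragments divided by gene length and library size, so levels can be compared between genes. UAP1L1 and RENBP passed this filter in all 4 groups, not only in the group where they were high.

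The cells carried a Dox-inducible PRCC-TFE3 gene, a fusion of PRCC with the transcription factor gene TFE3 that is found in translocation renal cell carcinoma. All 4 groups were the same inducible cells kept under puromycin and blasticidin selection, each with 3 libraries at 48 h. They were vehicle (DMSO), Dox (DMSO with Dox), MSC2530818 at 100 nM, an inhibitor of the Mediator kinases CDK8 and CDK19, and Dox with MSC2530818. The Dox dose, the promoter behind the fusion gene and whether the cells were 1 clone are not stated in the labels. No group received Dox without the fusion gene, so effects of Dox and of the fusion cannot be told apart.

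Amino sugars enter metabolism by the hexosamine pathway, in which fructose phosphate and glutamine are turned into UDP-N-acetylglucosamine (UDP-GlcNAc), the donor for N-glycans, proteoglycans, hyaluronan and the O-GlcNAc mark on cytosolic and nuclear proteins. The same sugars also come back from glycoproteins broken down in the lysosome and are then either rebuilt into UDP-GlcNAc by salvage enzymes or taken apart to fructose phosphate. N-acetylmannosamine branches off towards sialic acid. RENBP was first described as a renin-binding protein and is an epimerase that interconverts N-acetylglucosamine and N-acetylmannosamine.

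TFE3 had a mean of 35.8 ± 3.1 FPKM (SD, n = 3, as for all means below) with vehicle and 150 ± 4 with Dox. With the inhibitor it had 27.8 ± 1.7 without Dox and 84.2 ± 3.1 with Dox. TFE3 therefore rose with Dox in both backgrounds, by 2.04 ± 0.07 and 1.57 ± 0.07 on the log2 scale (± SE), and the 2 rises differed (adjusted p = 0.023). That difference was no longer called without vehicle replicate 2, inhibitor replicate 2, any 1 Dox library, or replicate 2 or 3 of Dox with inhibitor (adjusted p from 0.053 to 0.076). Values of TFE3 hold reads of the resident gene and of the fusion together. FPKM sums ran from 429208 to 473950 per library, and Pearson r within groups from 0.979 to 0.993. FPKM keeps no read numbers, which leaves the depth unknown and allows no counting interval. Replicate 1 of vehicle, of inhibitor and of Dox with inhibitor left their group means in the same direction across genes (r between 0.475 and 0.686). Of 17 renal and proximal tubule markers, 7 reached 1 FPKM in 3 libraries, among them PAX8 and GGT1, whereas the defining receptors and transporters LRP2, CUBN, SLC34A1, SLC22A6 and SLC22A8 stood at 0.09 FPKM or less in every library. In bulk RNA, fewer cells that express a gene and less RNA per cell cannot be told apart.

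Before the levels, sequences upstream of the start sites are shown, because MiT/TFE factors, the family of TFE3, are known to bind E-boxes in promoters of lysosomal genes. Printed are RENBP and the 3 of the 6 salvage and breakdown genes that held an E-box, and not NAGK and GNPDA2, which held none. RefSeq (GRCh38.p14) windows from 250 bases before to 50 bases after the start were available for 9 of the 10 genes, in 14 windows. UAP1L1 has no entry in that table. The letters CACGTG, an E-box that reads the same on both strands, occurred in 1 of the 14 windows, that of AMDHD2, and in 7.26% of 35116 windows genome-wide. The longer form GTCACGTG (CACGTGAC on the other strand), which contains the E-box, occurred in 2.4% of all windows. The third motif searched on both strands was TCATGTG, found in 2.92% of all windows and in none of the 14. The last 100 bases before the start follow for AMDHD2 (chr16:2520271-2520370, plus strand), GNPDA1 (chr5:142013028-142013127, minus strand), NPL (chr1:182789673-182789772, plus strand) and RENBP (chrX:153944644-153944743, minus strand), 5′ to 3′ on the gene's strand, with matches in capitals.
AMDHD2: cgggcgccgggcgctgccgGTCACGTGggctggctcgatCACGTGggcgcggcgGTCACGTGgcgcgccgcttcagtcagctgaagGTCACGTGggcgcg
GNPDA1: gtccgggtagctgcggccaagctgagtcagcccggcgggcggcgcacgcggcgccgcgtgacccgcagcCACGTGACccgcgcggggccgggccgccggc
NPL: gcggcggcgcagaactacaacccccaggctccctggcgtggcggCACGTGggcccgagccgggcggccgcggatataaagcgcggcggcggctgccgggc
RENBP: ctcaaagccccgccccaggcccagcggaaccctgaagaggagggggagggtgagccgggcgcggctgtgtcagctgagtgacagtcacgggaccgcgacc

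AMDHD2 held 4 E-boxes in this stretch, 3 of them in the longer form, while 5 of all 35116 windows held at least 4 (0.014%). That cut was set at the count of AMDHD2, whose own window is among the 5. GNPDA1 and NPL, which are not among the 10 genes but belong to the same salvage and breakdown list, held 1 E-box each, in the longer form in GNPDA1 only. The list thus had an E-box in 3 of 6 genes, beside 8.8% of 27305 genes with one in some window. Among genes with windows in the other lists below, neighbouring nucleotide sugars had 4 of 16 and glucose and glutamine entry 2 of 7. UDP-GlcNAc users had 2 of 17, and sugar nucleotide transporters and lysosomal genes 1 of 6 each. The hexosamine pathway had 0 of 5 and the sialic acid list 0 of 6. These genes include NEU1, which rose with Dox, and HAS3, which fell. For RENBP and the other 7 genes with windows, these letters were not in the windows, which says nothing of sites elsewhere. A match is a description of the sequence, and binding was not measured.

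UAP1L1, a close relative of UAP1 whose own reaction is less settled (chr9:137077501-137084539, plus strand, GRCh38), was a low transcript without Dox. Its FPKM in the 3 vehicle libraries was 2.51, 2.66 and 2.12, against 17.46, 18.99 and 18.46 with Dox. With the inhibitor it was 1.9, 2.03 and 1.98 without Dox and 4.51, 3.71 and 4.07 with Dox. The Dox libraries stood far above all others, the libraries with Dox and inhibitor came next, and no 2 of the 4 groups overlapped. The mean with Dox was 7.53 times that with vehicle. On the log2(FPKM + 1) scale the change was 2.5, the ninth largest of the 12649 from vehicle to Dox, and it is the change the gene was chosen by. Under the inhibitor, in libraries other than those of that change, Dox raised UAP1L1 2.08-fold in mean FPKM, or by 0.78 ± 0.08 on the log2(FPKM + 1) scale (adjusted p = 0.00011, limma). The SE of this test draws on all 12 libraries, and the genes were chosen with earlier results of these data known. In the presence of Dox, the inhibitor lowered it by 4.47 times in mean FPKM (log2 change -1.92 ± 0.08, adjusted p = 3.5e-08), a comparison that shares the Dox libraries with the choice. Without Dox the log2 change with the inhibitor was -0.2 ± 0.08 and missed the threshold (adjusted p = 0.062), which it passed without vehicle replicate 3 (-0.27, adjusted p = 0.023) with a pseudocount of 0.1 (-0.28, adjusted p = 0.041) and, in an alternative chosen after seeing the data, with the trend of log2 change on transcript length and GC content removed (-0.23, adjusted p = 0.034).

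RENBP (chrX:153935263-153944691, minus strand) followed the same order of groups. Vehicle libraries had 2.39, 2.81 and 2.6 FPKM and Dox libraries had 16.7, 18.66 and 17.88. Inhibitor libraries had 1.15, 1.66 and 1.45, and those with Dox and inhibitor had 3.76, 3.08 and 4.56. Again the Dox libraries were highest, then those with Dox and inhibitor, then vehicle, then inhibitor, without overlap between any 2 groups. The ratio of mean FPKM from vehicle to Dox was 6.83. The log2(FPKM + 1) change was 2.38, the tenth largest, and chose the gene. With the inhibitor present, Dox raised RENBP 2.68-fold (log2 change 0.98 ± 0.11, adjusted p = 0.00027). The inhibitor lowered RENBP both with Dox, by 4.67 times (log2 change -1.98 ± 0.11, adjusted p = 3.5e-07), and without it, by 1.83 times (log2 change -0.58 ± 0.11, adjusted p = 0.0022). The vehicle and the Dox libraries of these last comparisons also entered the choice.

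As a description, the Dox change with the inhibitor minus that without it was -1.72 ± 0.11 for UAP1L1 and -1.4 ± 0.16 for RENBP on the log2 scale. In mean FPKM, Dox added 15.9 to UAP1L1 without the inhibitor and 2.13 with it, and 15.1 and 2.38 to RENBP. TFE3 itself was lower with Dox and inhibitor than with Dox alone (84.2 against 150 FPKM), and its part in these differences was not tested.

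**Figure D1:**
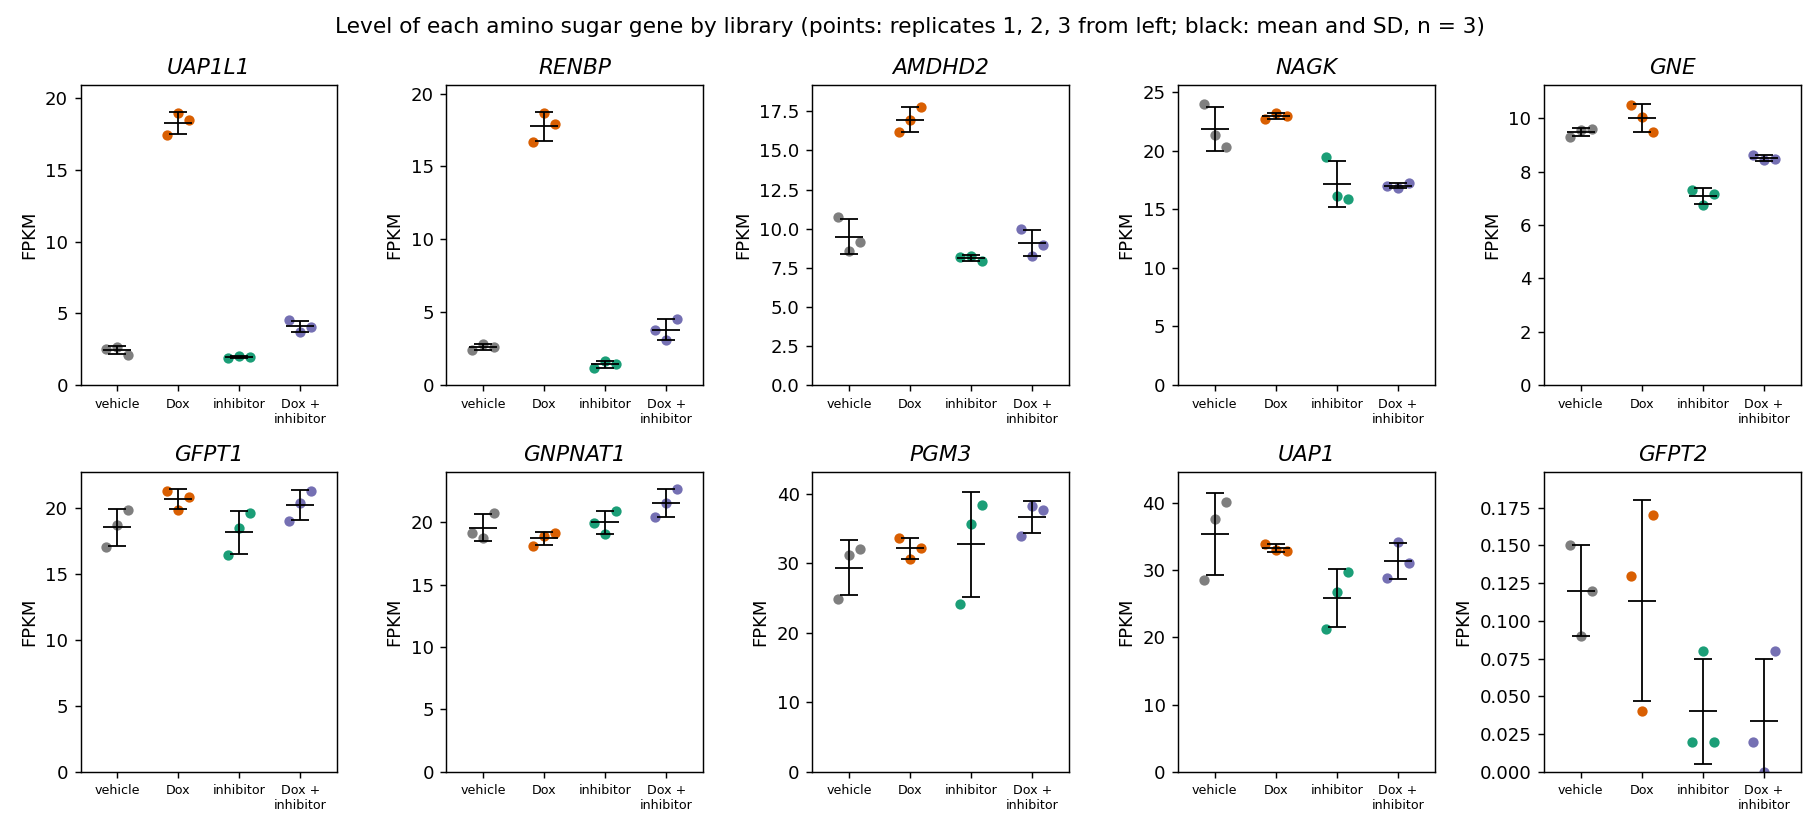
FPKM (vertical axes, each starting at 0) of the 10 genes in the 4 groups, with 1 point per library and black bars for the mean and SD of 3 libraries. UAP1L1, RENBP and AMDHD2 stand above all other groups in the 3 Dox libraries, whereas UAP1, PGM3, GFPT1 and GNPNAT1 show overlapping vehicle and Dox libraries and GFPT2 stays at 0.17 or less.

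AMDHD2, the deacetylase that removes the acetyl group from N-acetylglucosamine phosphate (chr16:2520357-2531422, plus strand), was the 1 gene to rise with Dox among the 7 tested in that comparison. Of all 12649 tested genes, 10.6% rose and 7.31% fell. Its FPKM was 10.73, 8.59 and 9.14 with vehicle and 16.17, 16.93 and 17.78 with Dox. With the inhibitor it was 8.19, 8.28 and 7.94 without Dox and 9.95, 8.28 and 8.96 with Dox. All 3 Dox libraries lay above every other library, and libraries with Dox and inhibitor overlapped both vehicle and inhibitor libraries. AMDHD2 rose 1.79-fold with Dox (log2 change 0.78 ± 0.08, adjusted p = 7.5e-05), and in the presence of Dox it was lowered 1.87 times by the inhibitor (log2 change -0.84 ± 0.08, adjusted p = 2.1e-05). With the inhibitor present, its log2 change with Dox was 0.14 ± 0.08 (95% interval -0.03 to 0.3, adjusted p = 0.26). The 2 Dox changes differed by -0.64 ± 0.12 (adjusted p = 0.014), the 1 such difference called among the 7 genes tested, where 0.909% of all tested genes had a called difference above 0 and 1.91% one below 0. With that length and GC trend removed, the Dox change under the inhibitor came to 0.25 and was called (adjusted p = 0.032), as was a change of -0.19 with the inhibitor alone (adjusted p = 0.048). AMDHD2 overlaps AC093525.1 on its own strand, and reads of the 2 genes may have been split between them.

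UAP1, the enzyme that makes UDP-GlcNAc in the last step of the pathway (chr1:162561506-162599842, plus strand), was the most abundant of the 10 genes in vehicle cells. Its FPKM was 28.51, 37.55 and 40.09 with vehicle, 33.92, 32.92 and 32.89 with Dox, 21.23, 26.66 and 29.75 with the inhibitor, and 28.85, 34.13 and 30.99 with both. The vehicle libraries spanned all 3 Dox libraries, and replicate 1 was the lowest in 3 of the 4 groups. The log2 change with Dox was -0.07 ± 0.13 (95% interval -0.33 to 0.19, adjusted p = 0.73) without the inhibitor. It was 0.28 ± 0.13 with the inhibitor (adjusted p = 0.16), and 0.049 was the adjusted p there with the replicate number as a block. The inhibitor alone lowered UAP1 by 0.44 on the log2 scale (log2 change -0.44 ± 0.13, adjusted p = 0.024) with overlapping libraries. That call ended without vehicle replicate 2 (adjusted p = 0.084), vehicle replicate 3 (0.089) or inhibitor replicate 1 (0.079), with median-ratio scaling (0.091) or quantile normalization (0.057), and in a fit of the compared libraries alone (0.092). With the length and GC trend removed, the Dox change without the inhibitor was -0.22 and called lower (adjusted p = 0.029).

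Within the pair formed by UAP1 and its relative UAP1L1, the share of UAP1L1 was highest in the Dox group. UAP1L1 held 6.57 ± 1.6% of the summed FPKM of the pair with vehicle, 35.5 ± 1.3% with Dox, 7.17 ± 1% with the inhibitor and 11.6 ± 1.9% with both. The share was 34% or more in each Dox library and 13.5% or less in each other library. These shares contain the change UAP1L1 was chosen by and carry no test. The summed FPKM of the pair was 37.8 ± 6 with vehicle and 51.5 ± 0.32 with Dox. It was 27.8 ± 4.4 with the inhibitor and 35.4 ± 2.3 with both, so that the 3 Dox libraries had the highest sums, from 51.4 to 51.9, and the others reached 42.2. Because the genes are related in sequence, some reads may have been assigned to the wrong one.

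**Figure D2:**
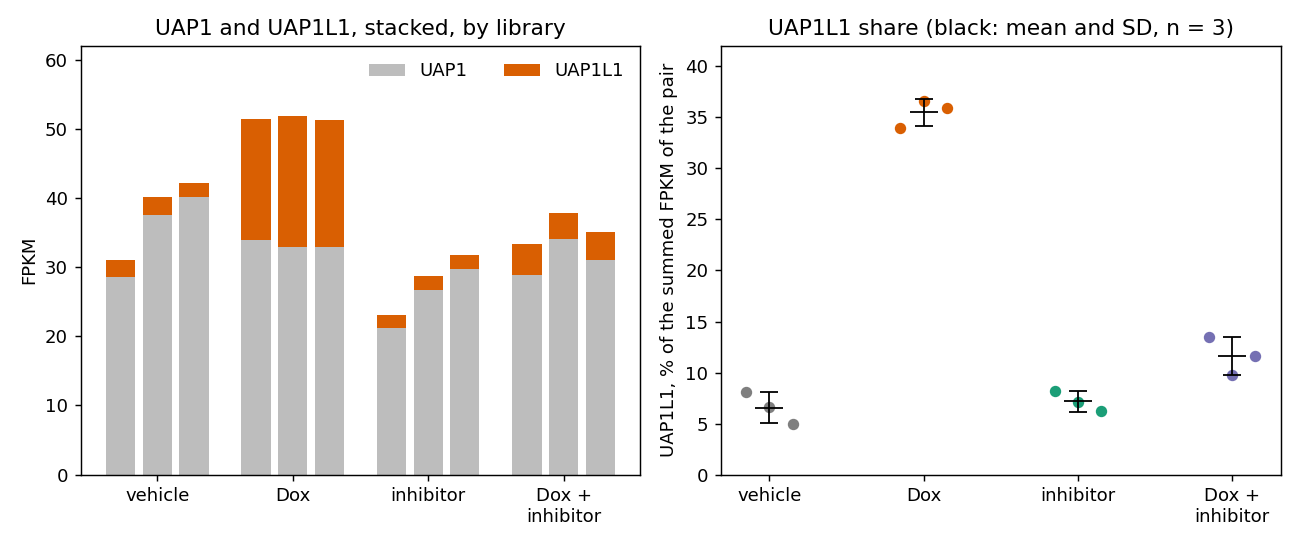
Left, FPKM of UAP1 (grey) and UAP1L1 (orange) stacked for each of the 12 libraries; right, the UAP1L1 share in percent of that sum, with points for libraries and black bars for mean and SD (n = 3). The orange part is 34% to 36.6% of the bar in the Dox libraries and 5% to 8.1% in the vehicle libraries.

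The enzymes of the earlier steps had log2 changes with Dox between -0.06 and 0.15. GFPT1, which commits fructose phosphate to the pathway with glutamine as the nitrogen donor (chr2:69319769-69387254, minus strand), had 18.5 ± 1.4 FPKM with vehicle, 20.7 ± 0.76 with Dox, 18.2 ± 1.6 with the inhibitor and 20.2 ± 1.1 with both. Its vehicle libraries ran from 17.05 to 19.86 and its Dox libraries from 19.81 to 21.29, which overlap at 1 library each. The log2 change with Dox was 0.15 ± 0.08 without the inhibitor (95% interval 0 to 0.3, adjusted p = 0.2) and 0.15 ± 0.08 with it (adjusted p = 0.18). The first of these was -0.04 and the second -0.11 once the length and GC trend was removed, so the direction of GFPT1 depends on that choice. With the replicate block as well, the second was called lower (adjusted p = 0.047), and a change of 0.13 with the inhibitor alone was called higher (adjusted p = 0.016). GFPT2, the other enzyme of this step (chr5:180300690-180353387, minus strand), stood between 0 and 0.17 FPKM in the 12 libraries and was not tested.

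GNPNAT1, the acetyltransferase of the pathway (chr14:52775194-52791668, minus strand), had 19.6 ± 1.1 FPKM with vehicle, 18.7 ± 0.53 with Dox, 20 ± 0.93 with the inhibitor and 21.6 ± 1.1 with both. Its log2 change with Dox was -0.06 ± 0.06 (95% interval -0.18 to 0.06, adjusted p = 0.52). Once the length and GC trend was removed and the replicate block added, it was -0.31 and called lower (adjusted p = 0.019), and the change with the inhibitor alone was 0.23 and called higher (adjusted p = 0.048). In the presence of Dox the inhibitor raised it from 18.13, 18.9 and 19.15 to 20.43, 21.55 and 22.7 FPKM, without overlap (log2 change 0.19 ± 0.06, adjusted p = 0.03). This call ended when any 1 Dox library was left out (adjusted p from 0.056 to 0.11), or replicate 2 (0.075) or 3 (0.12) of Dox with inhibitor, and with the length and GC trend removed (0.33, adjusted p = 0.062).

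PGM3, the mutase that moves the phosphate of N-acetylglucosamine phosphate (chr6:83161150-83193936, minus strand), had the largest spread between replicates. It read 24.85, 31.22 and 32.14 FPKM with vehicle, 33.72, 30.68 and 32.18 with Dox, 24.15, 35.65 and 38.47 with the inhibitor, and 34, 38.29 and 37.75 with both. Replicate 1 was low with vehicle and with the inhibitor, and the SE was the widest of the 9 tested genes. The log2 change with Dox was 0.13 ± 0.15 (95% interval -0.16 to 0.43, adjusted p = 0.56). Without replicate 1 of all groups, an alternative chosen after seeing the data, PGM3 was called higher with the inhibitor, by 0.22 without Dox (adjusted p = 0.013) and by 0.27 with it (adjusted p = 0.0066). Without inhibitor replicate 1 alone, the first of these was 0.33 (adjusted p = 0.028). Removing the length and GC trend called both as well, at 0.3 (adjusted p = 0.0071) and 0.28 (adjusted p = 0.011). DOP1A and RWDD2A overlap PGM3 on the opposite strand.

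NAGK, the kinase that returns free N-acetylglucosamine to the pathway (chr2:71064344-71079805, plus strand), was lower wherever the inhibitor was present. It had 23.97, 21.34 and 20.32 FPKM with vehicle and 22.7, 23.21 and 22.99 with Dox, against 19.46, 16.18 and 15.85 with the inhibitor and 16.97, 16.86 and 17.27 with both. No library with the inhibitor reached any library without it. NAGK fell with the inhibitor by 0.34 on the log2 scale without Dox (log2 change -0.34 ± 0.08, adjusted p = 0.0062) and by 0.41 with Dox (-0.41 ± 0.08, adjusted p = 0.0023). The first call ended with median-ratio scaling (-0.22, adjusted p = 0.054) and in a fit of the compared libraries alone (adjusted p = 0.052). Its log2 change with Dox was 0.07 ± 0.08 without the inhibitor (95% interval -0.08 to 0.22) and 0 ± 0.08 with it (95% interval -0.16 to 0.15).

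GNE, the enzyme of the first steps from UDP-GlcNAc to sialic acid (chr9:36214441-36277056, minus strand), had 9.48 ± 0.16 FPKM with vehicle and 10 ± 0.51 with Dox. With the inhibitor it had 7.31, 6.74 and 7.17 FPKM without Dox and 8.63, 8.44 and 8.46 with Dox. The inhibitor libraries were lowest and those with both came next, each below all libraries without the inhibitor. GNE fell with the inhibitor, by 0.38 on the log2 scale without Dox (log2 change -0.38 ± 0.05, adjusted p = 0.00031) and by 0.21 with it (-0.21 ± 0.05, adjusted p = 0.013). Under the inhibitor it rose with Dox (log2 change 0.24 ± 0.05, adjusted p = 0.014). Median-ratio scaling ended the last 2 calls (adjusted p = 0.094 and 0.072), as did quantile normalization (0.16 and 0.22), and leaving out Dox replicate 1 ended the first of them (0.059) and inhibitor replicate 2 the second (0.059). The second also ended in a fit of the compared libraries alone (0.064) and with the length and GC trend removed, where it came to 0.11 (adjusted p = 0.19). CLTA overlaps GNE on the opposite strand.

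Counted over the tested genes other than UAP1L1 and RENBP, which were chosen by a rise with Dox, Dox in the presence of the inhibitor raised 1 of 7 (GNE). That is near the 12.2% of all tested genes that rose, where 6.06% fell, and is no result about the set. With the replicate block, UAP1 was called as well, in a fit that called 3351 of the 12649 tested genes higher, against 1537 without it. Both inhibitor comparisons share libraries with the choice of UAP1L1 and RENBP, so those 2 genes are left out of the next counts as well. The inhibitor without Dox lowered 3 of 7 (UAP1, NAGK and GNE), where 26.3% of all tested genes fell and 11.7% rose. With Dox present it lowered 3 of 7 (AMDHD2, NAGK and GNE) and raised 1 (GNPNAT1), where 20.8% of all tested genes fell and 11.3% rose. The median log2 change over all tested genes was -0.12 for inhibitor against vehicle and moved to -0.01 with median-ratio scaling, which is the size of shift against which the smaller changes of UAP1, NAGK and GNE stand. UAP1L1, RENBP and AMDHD2 kept each call named above under the alternatives run. The fall of GNE with the inhibitor without Dox and that of NAGK with it in the presence of Dox also kept their calls.

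**Figure D3:**
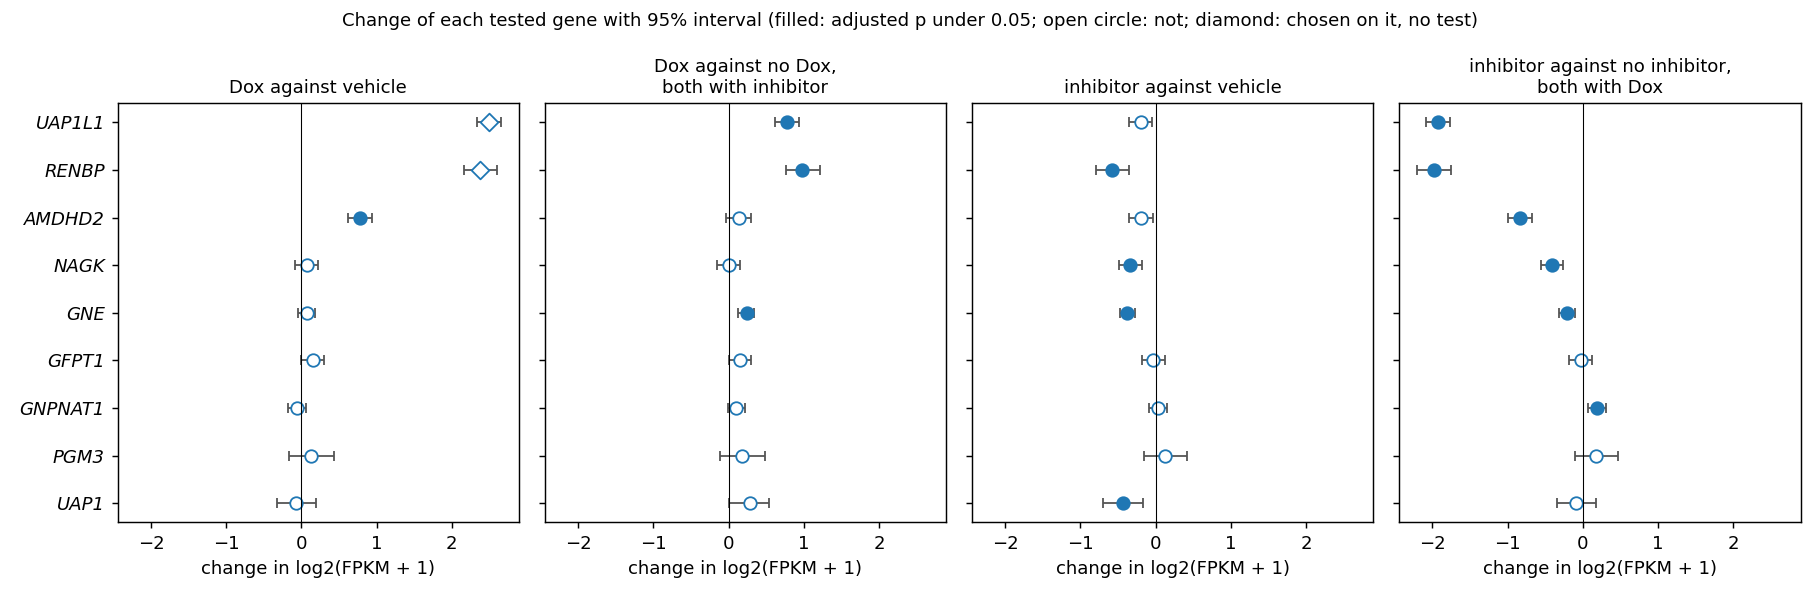
Change in log2(FPKM + 1) of the 9 tested genes in 4 comparisons (horizontal axes), with 95% intervals; filled circles have an adjusted p under 0.05, open circles do not, and diamonds mark the 2 changes used to choose genes. UAP1L1 and RENBP lie at -1.92 and -1.98 for the inhibitor in the presence of Dox, and AMDHD2 at -0.84.

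Across the conditions the order of levels among the genes changed. With vehicle, UAP1 (35.4 ± 6.1 FPKM) and PGM3 (29.4 ± 4) were highest and overlapped, NAGK (21.9 ± 1.9), GNPNAT1 and GFPT1 followed, each overlapping the next, AMDHD2 (9.49 ± 1.1) and GNE were level, and RENBP (2.6 ± 0.21) and UAP1L1 (2.43 ± 0.28) were close to each other near the bottom. With Dox, UAP1L1 (18.3 ± 0.78), RENBP (17.7 ± 0.99) and AMDHD2 (17 ± 0.81) stood within each other's spread and beside GNPNAT1 (18.7 ± 0.53). With both agents, UAP1L1 (4.1 ± 0.4) and RENBP (3.8 ± 0.74) were again the lowest of the 9.

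Some genes moved across the 12 libraries much as UAP1L1 and RENBP did. By Pearson r of log2(FPKM + 1), the 5 tested genes most like UAP1L1 were STX3 (r = 0.997), a syntaxin of vesicle fusion, RRAGD (0.993), a Rag GTPase, FLCN (0.993), the folliculin gene, HSD17B14 (0.99), a steroid dehydrogenase, and RENBP itself (0.988). Those most like RENBP included UAP1L1 (0.988), RRAGD (0.988), RRAGC (0.987), another Rag GTPase, and CNTN5 (0.986), a contactin. The mean of RRAGD was 1.02 FPKM with vehicle, 8.71 with Dox, 0.587 with the inhibitor and 1.51 with both. These r values rest on 4 groups of 3 libraries, with the Dox group apart from the others, and are a description. AMDHD2 ranked 95th in likeness to UAP1L1 (r = 0.952) and 104th in likeness to RENBP (r = 0.95).

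The salvage and breakdown list holds NAGK, AMDHD2, GNPDA1, GNPDA2, RENBP and NPL, and all 6 were tested. Apart from RENBP, which was chosen by its Dox change, 2 of 5 rose with Dox, AMDHD2 and GNPDA1. Over all tested genes 10.6% rose and 7.31% fell. The median log2 change of the 5 was 0.54, the value of GNPDA2, which was not called, against 0.04 over all tested genes. Counted with RENBP, which carries no test here, the list went from 3 higher to 4 with the replicate block. That fit called 2232 of all tested genes higher, against 1344 without the block. Removing the length and GC trend gave 4 as well. Under the inhibitor the list went from 2 higher to 3 with the block, where 3351 of all tested genes were higher against 1537. Removing the trend there gave 3 higher and 1 lower. GNPDA1, a deaminase that turns glucosamine phosphate into fructose phosphate, had 31.1, 29.07 and 29.17 FPKM with vehicle and 70.13, 71.45 and 67.23 with Dox. With the inhibitor it had 35.99, 30.32 and 29.9 FPKM without Dox and 45.12, 39.39 and 41.2 with it. Its Dox libraries were far above all others and those with both agents were in between. GNPDA1 rose with Dox by 1.2 ± 0.08 on the log2 scale (adjusted p = 1.8e-06) and, under the inhibitor, by 0.38 ± 0.08 (adjusted p = 0.0068), and the 2 changes differed by -0.82 ± 0.11 (adjusted p = 0.002).

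AMDHD2 and GNPDA1 catalyse consecutive steps from N-acetylglucosamine phosphate back to fructose phosphate, and both held the longer E-box form in the sequences above. In the other pathway lists 3 genes held it too, and their log2 changes with Dox were 0.37 for GNPTG, which was called, -0.05 for GALT, which was not, and -0.24 for SLC1A5, which was called. NPL, the lyase that splits sialic acid, had an E-box too and had 1.86 ± 0.32 FPKM with vehicle and 1.55 ± 0.25 with Dox (log2 change -0.16 ± 0.1, adjusted p = 0.3). GNPDA2, the second deaminase gene, went from 7.12 ± 1.9 to 10.5 ± 0.84 FPKM (log2 change 0.54 ± 0.2, adjusted p = 0.092), with vehicle replicate 1 lowest at 5 FPKM. With Dox present, the inhibitor lowered 3 of the 5 genes other than RENBP (NAGK, AMDHD2 and GNPDA1), beside 20.8% of all tested genes that fell, with a median of -0.41 over the 5 against -0.08 over all tested genes.

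Of 10 tested genes for lysosomal breakdown of glycans that hold amino sugars, 6 rose with Dox (HEXA, NAGLU, NEU1, AGA, MANBA and GLB1), with a median log2 change of 0.4. Not all of the 10 release an amino sugar themselves, MANBA and GLB1 among them. Over all tested genes 10.6% rose and the median was 0.04. The call for GLB1 ended in 4 of the 12 fits without 1 library (vehicle or Dox replicate 2 or 3) and with median-ratio scaling, and that for NAGLU with quantile normalization. NEU1, the lysosomal sialidase, went from 64.3 ± 8.9 to 159 ± 9.9 FPKM (log2 change 1.3 ± 0.09, adjusted p = 3.8e-06). MANBA, the lysosomal beta-mannosidase, rose by 0.63 ± 0.07 on the log2 scale (adjusted p = 0.00015) and HEXA, the alpha subunit of hexosaminidase, by 0.62 ± 0.08 (adjusted p = 0.00035). Under the inhibitor 3 of the 10 rose with Dox (NEU1, AGA and MANBA), beside 12.2% of all tested genes, with a median of 0.23 against 0.08. With the replicate block 6 rose, in a fit that called 3351 of the 12649 tested genes higher, against 1537 without the block. The call for MANBA ended in 10 of the 12 fits without 1 library (adjusted p from 0.052 to 0.15), all but those without vehicle replicate 1 or inhibitor replicate 2. The Dox changes with and without the inhibitor differed for 1 of the 10, NEU1 (-0.63 ± 0.13, adjusted p = 0.025). This call ended without vehicle replicate 2, Dox replicate 2 or 3, or replicate 2 or 3 of Dox with inhibitor (adjusted p from 0.06 to 0.078). CD68, a lysosomal membrane gene on the leukocyte marker list, moved with these genes: the summed list had 34.39 to 42.55 FPKM with vehicle and 53.25 to 58.71 with Dox, while PTPRC stayed at 0.02 or less. The summed fibroblast list, of which COL1A1 and LUM alone reached 1 FPKM in 3 libraries, had 6.17 to 6.79 FPKM with vehicle and 10.66 to 11.97 with Dox. The summed renal list was lower with Dox, at 1052.73 to 1088.55 against 1287.34 to 1445.44. VIM, KRT8 and KRT18 weighed most in that sum, with medians of 622, 278 and 182 FPKM over the 12 libraries. PAX8 and GGT1 had 105 and 42.3, and the fall of the sum was not split by gene. The endothelial list stayed at 0.19 or less in all 12 libraries. The part of these markers in the changes given here was not tested.

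**Figure D4:**
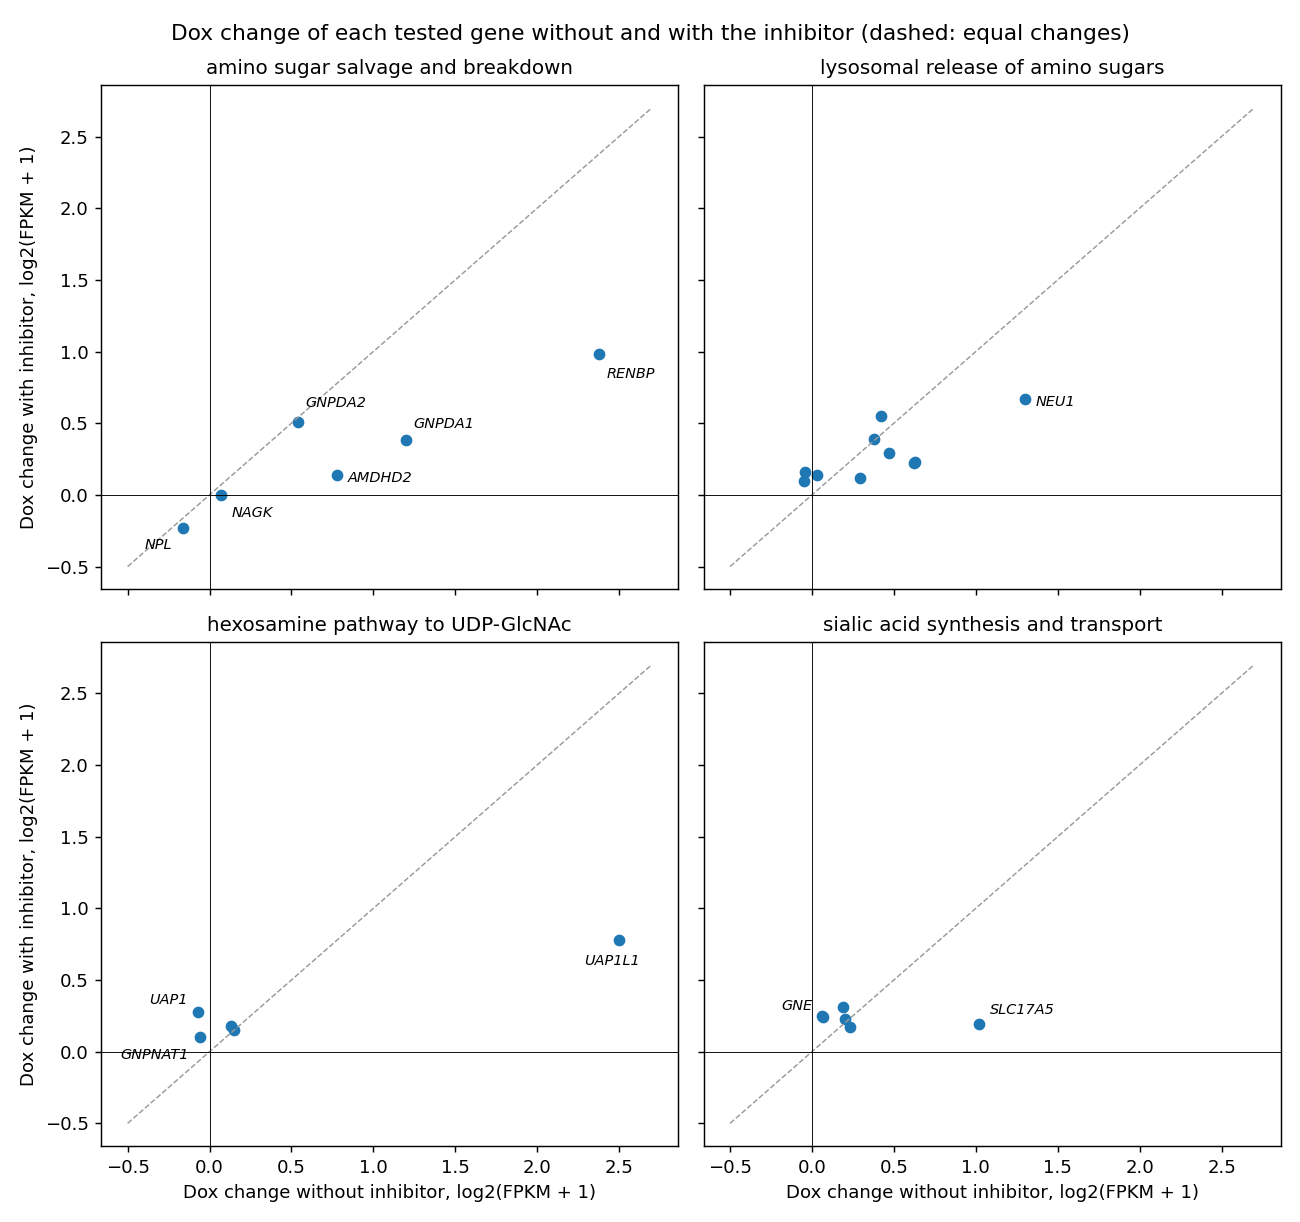
Change in log2(FPKM + 1) with Dox without the inhibitor (horizontal axis) and with it (vertical axis) for each tested gene of 4 lists, with the dashed line at equal changes. RENBP (2.38, 0.98), UAP1L1 (2.5, 0.78), GNPDA1 (1.2, 0.38), AMDHD2 (0.78, 0.14) and SLC17A5 (1.02, 0.19) lie below the line; the 2 axes share no libraries.

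In the sialic acid list, 2 of 6 genes rose with Dox, SLC17A5 and CMAS, beside 10.6% of all tested genes. SLC17A5, the exporter of sialic acid from the lysosome, had 10.36, 9.04 and 8.41 FPKM with vehicle and 19.33, 19.23 and 20.54 with Dox (log2 change 1.02 ± 0.08, adjusted p = 6.7e-06). It was 12.5 ± 0.6 with the inhibitor and 14.4 ± 1 with both, and its 2 Dox changes differed by -0.83 ± 0.11 (adjusted p = 0.0022). CMAS, which activates sialic acid with CMP, had a log2 change of 0.2 ± 0.06 (adjusted p = 0.04), and this call ended in 7 of the 12 fits without 1 library (adjusted p from 0.051 to 0.13), with median-ratio scaling or quantile normalization, and with the length and GC trend removed. NANS, NANP and SLC35A1 had log2 changes between 0.06 and 0.23 that were not called. Under the inhibitor, 2 of the 6 rose with Dox, GNE and CMAS, beside 12.2% of all tested genes. With the replicate block 4 of the 6 rose, where 3351 of the 12649 tested genes did. The calls for GNE and CMAS ended with median-ratio scaling or quantile normalization, where the list median was still 0.15.

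Of 18 tested genes on the list of UDP-GlcNAc users, which also holds MGEA5, Dox raised 3 (ALG14, GNPTG and GCNT2) and lowered 2 (DPAGT1 and HAS3). These counts are near the shares of all tested genes, 10.6% higher and 7.31% lower, and are no result about the list. HAS3, a hyaluronan synthase, fell with Dox from 25.9 ± 2.5 to 14.6 ± 0.63 FPKM (log2 change -0.78 ± 0.07, adjusted p = 2.3e-05), and the inhibitor raised it to 51.3 ± 2.6 without Dox (0.96 ± 0.07, adjusted p = 2.1e-06). ALG14, part of the transferase for the second sugar of N-glycan precursors, went the opposite way, rising with Dox from 10.2 ± 0.44 to 17.6 ± 1.1 FPKM and falling with the inhibitor to 6.66 ± 0.76. OGT, which attaches O-GlcNAc, had 58.9 ± 1.2 FPKM with vehicle and 53 ± 1.4 with Dox (log2 change -0.15 ± 0.05, adjusted p = 0.074). MGEA5, which removes O-GlcNAc, had 53.8 ± 6.6 and 54.7 ± 0.35 FPKM (0.03 ± 0.09, adjusted p = 0.84). Under the inhibitor Dox raised 3 and lowered 2 of the 18, beside 12.2% of all tested genes that rose and 6.06% that fell. With the replicate block it raised 8 and lowered 3, in a fit that called 4548 of the 12649 tested genes, 73.7% of them higher.

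Among 18 enzymes of neighbouring nucleotide sugars, 3 rose and 2 fell with Dox, again near those shares, and 2 rose and none fell without vehicle replicate 1 or 2 or without any 1 Dox library. The inhibitor without Dox lowered 9 and raised 2, where 26.3% of all tested genes fell and 11.7% rose. With the replicate block it lowered 10 and raised 3, in a fit that called 6167 of all tested genes, against 4802 without the block. With median-ratio scaling it lowered 5 and raised 4, where 55% of the 4035 calls over all tested genes were higher. UXS1, which makes UDP-xylose, had the largest such fall, from 140 ± 2.6 to 92.6 ± 2.5 FPKM (log2 change -0.59 ± 0.05, adjusted p = 5.2e-06). Dox raised UXS1 more with the inhibitor (0.63 ± 0.05) than without it (0.28 ± 0.05), a difference of 0.35 ± 0.07 (adjusted p = 0.023) that is opposite in sign to that of AMDHD2. It was not called without vehicle replicate 2, Dox replicate 2 or 3, inhibitor replicate 2, or replicate 1 or 3 of Dox with inhibitor (adjusted p from 0.051 to 0.078). Of 6 sugar nucleotide transporters, 2 rose with Dox, SLC35B4 and SLC35D1, by 0.27 on the log2 scale each, beside 10.6% of all tested genes. Neither was called without Dox replicate 1 or with quantile normalization. The call for SLC35B4 also ended without vehicle replicate 2 (adjusted p = 0.051 to 0.054 over these 2 libraries), and that for SLC35D1 without vehicle replicate 1 or Dox replicate 2 (0.055 to 0.062 over the 3 libraries) and with the length and GC trend removed. Of 9 genes of glucose and glutamine entry, SLC2A3 (0.69 ± 0.09) and HK2 (0.23 ± 0.05) rose with Dox and SLC2A1 (-0.28 ± 0.07) and SLC1A5 (-0.24 ± 0.07) fell. The call for SLC1A5 (adjusted p = 0.046) ended with no filter and in 10 of the 12 fits without 1 library, all but vehicle replicate 3 and inhibitor replicate 1 (0.052 to 0.14). That for SLC2A1 ended without vehicle replicate 1 or Dox replicate 1 or 3 (0.057 to 0.067), and that for HK2 without Dox replicate 2 or with quantile normalization. SLC2A3 stood at 1.54 ± 0.19 FPKM even with Dox.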

How the data were processed

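Poly(A) RNA of HK-2 cells was sequenced in 12 libraries, 3 in each of 4 groups, taken from the treatment labels, and the design text calls the replicates independent and biological. Per the labels' protocols, TRIzol was used for extraction and a stranded TruSeq mRNA kit for library preparation. Salmon 1.9.0, Trim Galore 0.6.7, hg38 and GRCh38.p13 are named, without a role, per the submitters' processing notes, and how the authors calculated the deposited FPKM, or with which annotation, is not given in the sources used here. The 10 genes and all gene lists were chosen with earlier results of these data known.

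Values were analysed as log2(FPKM + 1), which understates changes of low genes, without rescaling. Genes with an FPKM of at least 1 in at least 3 libraries, 12649 (48%), were tested in 1 limma 3.58.1 fit (R 4.3.3) of 4 group means with an intensity trend and 8 residual degrees of freedom. P-values are two-sided and Benjamini-Hochberg adjusted over all tested genes, and genes under 0.05 were called. On simulated data with 3 libraries a group, calls were made for 93 of 100 genes changed by 1 on the log2 scale and 63 of 100 changed by 0.5. These shares hold for the spread of the simulated data and are not given as rates for the genes named here. Named were the 10 genes, TFE3, up to 3 called genes of each list per comparison with the largest change, and the 5 genes most like UAP1L1 and RENBP. GNPDA2, NPL, OGT, MGEA5, GALT and uncalled or smaller changes were named after their values were seen. Some genes of the lists are not reported here and were left out of the list counts. Same-numbered libraries of inhibitor and of Dox with inhibitor deviated together (r = 0.549, 0.133 and 0.337). The replicate block is therefore given beside Dox in the presence of the inhibitor where it changes a call or count given. Vehicle and inhibitor libraries deviated together as well (0.686, 0.097 and 0.505), and their comparison was reported without the block. With the block it called 6167 genes, against 4802 without it. Vehicle and Dox did not pair (0.017, -0.072 and 0.198). Gene coordinates and overlaps come from GENCODE on GRCh38, and upstream sequences from RefSeq. Alternatives were other pseudocounts (0.1, 0.5), filters, scalings, no trend, the block, only the compared groups, leaving out each library and, chosen after seeing the data, removal of a length and GC trend and of replicate 1 of all groups.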

Additional observations from a re-analysis of the deposited data

Results flagged for a closer look

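The difference between the Dox change with the inhibitor and the Dox change without it passed the limma test for 7 of the genes named, in log2 units. AMDHD2 had -0.64 (adjusted p = 0.014), GNPDA1 -0.82 (0.002) and SLC17A5 -0.83 (0.0022), and these 3 calls held in each of the 23 alternatives run. TFE3 itself had -0.47 (0.023) and NEU1 -0.63 (0.025). UXS1 had a difference of 0.35 (0.023), with the larger Dox change in the presence of the inhibitor. SLC2A3 had -0.59 (0.039), a call that ended in 11 of the 12 fits without 1 library, Dox replicate 1 being the exception, with an adjusted p from 0.053 to 0.12. Of those 12 fits, 7 ended the call for TFE3, 5 that for NEU1 and 6 that for UXS1. The TFE3 value stands beside the others as a measurement, and its part in them was not tested.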

How the results depend on the processing

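The calls for UAP1L1, RENBP and AMDHD2 given in the report kept their direction and their side of the threshold in the alternatives run. Over the 9 tested genes, 1071 values under alternatives were compared with those reported: 975 kept direction and side, 23 lost a call, 21 gained one, 46 changed sign and 6 moved by more than the replicate spread. Of the 46 changes of sign, 2 were called under the alternative, both for GFPT1, and the cause was not tested. The number of genes called was 2269 for Dox against vehicle, 2304 for Dox in the presence of the inhibitor and 357 for the difference of the Dox changes. With the replicate block these were 3741, 4548 and 666, with the length and GC trend removed as well 4106 for the first and 1077 for the last, and with that trend removed alone 789 for the last. A fit of the compared libraries alone called 1099 for Dox in the presence of the inhibitor. Leaving out 1 library gave 1427 to 2665, 1121 to 2920 and 186 to 420. With quantile normalization the split of calls moved, from 59.2% to 43.3% higher for Dox against vehicle, 66.7% to 41% for Dox in the presence of the inhibitor, 30.8% to 49.7% for inhibitor against vehicle and 35.3% to 50.3% for the inhibitor in the presence of Dox. Median-ratio scaling gave 43.4%, 35.3%, 55% and 53.9%.

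With the length and GC trend removed, with or without the replicate block, GFPT1 changed sign to -0.04 for Dox, -0.11 for Dox in the presence of the inhibitor, 0.13 for the inhibitor and 0.05 for the inhibitor in the presence of Dox. With the block, -0.11 (adjusted p = 0.047) and 0.13 (0.016) were called. PGM3 changed to -0.03 and -0.05 for the 2 Dox comparisons and to -0.02 for their difference, GNPNAT1 to -0.21 for Dox in the presence of the inhibitor, and GNE (Dox) and NAGK (Dox in the presence of the inhibitor) to values that round to 0, as GNE (Dox) did with quantile normalization. GFPT1 with the inhibitor was 0.09 without Dox and 0.05 with it under median-ratio scaling, and 0.07 and 0.04 with quantile normalization. Without replicate 1 of all groups, PGM3 was -0.01 for Dox, NAGK 0.09 for Dox in the presence of the inhibitor, and GFPT1 0.03 for the inhibitor in the presence of Dox and 0.05 for the difference of the Dox changes. Leaving out 1 library gave -0.22 to 0.02 for UAP1 with Dox. In the presence of the inhibitor it gave -0.02 to 0.31 for PGM3 and -0.06 to 0.08 for NAGK. For inhibitor against vehicle it gave -0.08 to 0.04 for GFPT1 and 0 to 0.07 for GNPNAT1. For the inhibitor in the presence of Dox it gave -0.07 to 0.01 for GFPT1. For the difference of the Dox changes it gave -0.07 to 0.05 for GFPT1, -0.15 to 0.18 for PGM3 and -0.14 to 0.01 for NAGK. A pseudocount of 0.1 put the Dox value at 2.87 for UAP1L1 and 2.73 for RENBP. Log2 changes followed GC content across genes (Spearman rho -0.38 for Dox against vehicle, -0.56 for Dox in the presence of the inhibitor), and absolute depth, which sets the precision of low genes such as GFPT2, is unknown.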
